A study of Homo sapiens with 4 samples.

Results

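The zinc finger genes of chromosome 19 were taken as the genes of the expression table that lie on chromosome 19 and whose symbol is ZNF followed by a number. 241 of the 61806 genes in the table met this rule, all of them annotated as protein-coding, and 156 of the 241 reached 1 FPKM in at least 1 library. FPKM divides a gene's fragment count by its exonic length in kilobases and by the library total scaled to 1000000, so that levels of genes of different length can be set side by side. The other 85 members stayed below 1 FPKM in all libraries, 5 of them with no count in any. ZNF573 lay just inside this limit, with a highest level of 1.07 FPKM, and ZNF568 just outside it, with 0.97 FPKM.

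Most of these genes encode KRAB zinc finger proteins, which form one of the largest families of human transcription factors and sit in clusters of near relatives on chromosome 19. Their arrays of C2H2 zinc fingers bind DNA, in many cases within transposable elements, and the KRAB box at the other end of the protein recruits TRIM28, which brings the histone methyltransferase SETDB1, heterochromatin proteins and histone deacetylases to silence the bound site. Their mRNAs are in general of low abundance, and many members have arisen recently in primates by duplication.

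The study sequenced poly(A) RNA from JJ012, a human chondrosarcoma cell line, and 143B, a human osteosarcoma cell line, to ask what melatonin changes in bone cancer cells kept from attaching. Each line gave an untreated (control) library and a library after 1 mM melatonin for 72 h, both from cells under detachment conditions, so there were 4 libraries and 1 per condition. With no replicates no test was made: differences describe these libraries, and intervals cover counting error only, as each condition has 1 library. The reads also carried no molecular identifiers. The columns whose names end in T were read as melatonin, which is a reading of the name.

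The libraries held 15889564 to 19218343 gene counts, so that 3 counts, taken as the detection floor, correspond to 0.156 to 0.189 CPM, which are counts scaled to a library total of 1000000. Of 6 cartilage markers, 2 and 1 reached 1 FPKM in control and melatonin JJ012: SOX9 was at 15.06 and 6.16 FPKM, COL11A2 at 1.67 and 0.61 and MATN3 at 0.91 and 0.33, while ACAN, COL2A1 and COL9A1 were at or below 0.02 FPKM. Of 6 bone markers, 2 reached 1 FPKM in each 143B library: RUNX2 was at 4.28 and 2.75 FPKM and BGLAP at 1.44 and 1.21, while SPP1 and ALPL were at or below 0.53 and SP7 and IBSP at or below 0.02 FPKM. SPP1 was at 79.39 and 64.5 FPKM in JJ012, the chondrosarcoma line. RUNX2 was at 3.02 and 2.59 FPKM there, so 2 bone markers reached 1 FPKM in each JJ012 library as well. SOX9 was at 15.48 and 12.09 FPKM in control and melatonin 143B, the 1 cartilage marker at 1 FPKM there. SOX9 and RUNX2 thus did not set the lines apart. Of the 8 epithelial, leukocyte and endothelial markers examined, at most 3 reached 1 FPKM in a library. CD3E, a T cell gene, was at 9.73 and 3.28 FPKM in control and melatonin JJ012 with PTPRC at 0.14 and 0.02 FPKM, and the part of such changes in the results was not tested. In bulk RNA, fewer cells expressing a gene and less of its RNA per cell cannot be told apart.

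A search of the longest open reading frame of each gene's transcripts for the KRAB box pattern found it in 203 of the 241 members and not in 38, against 102 of 234 ZNF genes of other chromosomes with a readable frame. The same frames held a median of 12 C2H2 finger patterns, from 0 in ZNF738 to 36 in ZNF208, with 13 for members with the KRAB pattern and 9.5 for those without. A frame in which no pattern was found may still encode a divergent box. The median exonic length was 5431 bases, from 1441 bases in ZNF524 to 14132 in ZNF431, against 4438 bases over all protein-coding genes, and members with the KRAB pattern were longer (5759 bases) than those without (3771.5 bases).

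The promoters of 210 members were matched in a RefSeq table (GRCh38.p14). They held a median of 20 CG dinucleotides in 300 bases, from 250 before to 50 after the start, and 41.2% of all 35116 promoters in that table held at least as many. CG reads the same on both strands. The 250 bases before the start are shown for 3 members that had no more than 3 counts in both 143B libraries, and for 2 that were among the 10 members with the highest mean level, because the between-line difference described next is the clearest pattern among these genes. CG dinucleotides are in capitals.
ZNF790 (chr19:36850793-36851042, minus strand): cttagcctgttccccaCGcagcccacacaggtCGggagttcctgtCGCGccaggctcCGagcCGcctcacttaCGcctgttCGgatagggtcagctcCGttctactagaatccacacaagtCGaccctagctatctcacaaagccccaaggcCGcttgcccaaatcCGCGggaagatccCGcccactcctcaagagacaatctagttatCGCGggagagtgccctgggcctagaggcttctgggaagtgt
ZNF528 (chr19:52397599-52397848, plus strand): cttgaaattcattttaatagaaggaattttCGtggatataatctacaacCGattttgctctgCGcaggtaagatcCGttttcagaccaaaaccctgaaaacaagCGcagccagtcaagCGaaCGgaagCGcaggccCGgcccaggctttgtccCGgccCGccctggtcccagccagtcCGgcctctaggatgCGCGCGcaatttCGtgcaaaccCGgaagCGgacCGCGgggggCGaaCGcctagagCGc
ZNF285 (chr19:44401609-44401858, minus strand): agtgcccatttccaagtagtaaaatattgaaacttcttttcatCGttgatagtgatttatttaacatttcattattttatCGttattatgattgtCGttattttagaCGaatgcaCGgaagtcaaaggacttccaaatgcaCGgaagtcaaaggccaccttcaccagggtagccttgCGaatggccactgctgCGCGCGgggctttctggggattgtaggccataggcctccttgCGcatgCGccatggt
ZNF428 (chr19:43619630-43619879, minus strand): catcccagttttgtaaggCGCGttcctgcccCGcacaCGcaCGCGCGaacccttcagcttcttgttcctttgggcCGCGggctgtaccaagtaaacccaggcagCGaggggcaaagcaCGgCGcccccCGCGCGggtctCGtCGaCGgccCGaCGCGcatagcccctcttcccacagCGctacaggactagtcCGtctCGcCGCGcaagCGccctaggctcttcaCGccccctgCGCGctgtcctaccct
ZNF841 (chr19:52095766-52096015, minus strand): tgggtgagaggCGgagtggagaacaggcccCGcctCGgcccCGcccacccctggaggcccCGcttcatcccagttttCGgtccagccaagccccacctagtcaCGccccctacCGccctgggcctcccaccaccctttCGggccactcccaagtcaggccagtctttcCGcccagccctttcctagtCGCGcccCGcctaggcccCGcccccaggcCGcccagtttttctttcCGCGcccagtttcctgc

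These windows held 16, 23 and 12 CG dinucleotides in ZNF790, ZNF528 and ZNF285, and 30 and 17 in ZNF428 and ZNF841. The counts of the promoters from both sets thus overlapped, and all 5 came from members whose own span in the table holds none of the 250 bases. Methylation was not measured.

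Fewer members were detected in 143B than in JJ012. In control and melatonin JJ012, 139 and 144 of the 241 members reached 1 FPKM, which is 57.7% and 59.8%, against 82 and 94 in control and melatonin 143B, which is 34.0% and 39.0%. Over all 19838 protein-coding genes these shares were close to each other, at 56.4% and 54.8% in JJ012 and 53.1% and 53.5% in 143B. Members without any count numbered 7 and 15 in JJ012 and 65 and 63 in 143B, which is 2.9%, 6.22%, 27.0% and 26.1%, where 13.7%, 17.9%, 22.1% and 22.6% of protein-coding genes had none. The shares of the members were thus below those of protein-coding genes in JJ012 and above them, by less, in 143B. The median member stood at 1.34 and 1.36 FPKM in JJ012 and at 0.37 and 0.52 FPKM in 143B. Together the members took 0.296% and 0.348% of all counts in JJ012, and 0.175% and 0.184% in 143B.

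Levels were low and uneven. Among genes at 1 FPKM or more, the median member was at 2.43, 2.54, 2.30 and 2.03 FPKM in control and melatonin JJ012 and control and melatonin 143B, against 6.59, 7.77, 6.15 and 6.41 FPKM for protein-coding genes. Only 12, 13, 4 and 3 members reached 10 FPKM in the same order of libraries. Members without the KRAB pattern were the higher group, with a median of 3.00 FPKM in control JJ012 and 1.62 FPKM in control 143B, against 1.16 and 0.31 FPKM for members with it. Across members the level had a Spearman correlation of 0.25 to 0.28 with the CG count of the promoter (210 members) and of 0.23 to 0.38 with the GC content of the transcript (241 members), and of -0.06 to 0.01 with exonic length. These points share their 4 libraries and, within clusters, their sequence.

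The highest mean level belonged to ZNF146, a protein made of little more than zinc fingers, at 26.19, 35.21, 29.56 and 31.36 FPKM. ZNF581 followed at 21.13, 25.80, 29.29 and 30.71 FPKM. Both were within a narrow range in all 4 libraries. The next, ZNF428, was at 31.83 and 19.19 FPKM in JJ012 but at 3.57 and 3.90 FPKM in 143B, and ZNF358 at 25.63 and 16.47 FPKM in JJ012 and 6.98 and 7.41 FPKM in 143B. ZNF841, at 10.29, 15.41, 10.45 and 8.03 FPKM, was the member with the KRAB pattern among the 10 highest, and the pattern was not found in the other 9. ZNF580, ZNF121, ZNF787, ZNF865 and ZNF579 complete the 10 highest, with mean levels of 9.70 to 10.92 FPKM.

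Members of known role were mostly in the low range. ZNF91, a repressor of SVA and L1 retrotransposons, was at 2.27 and 3.02 FPKM in JJ012 and 0.99 and 1.35 FPKM in 143B. ZNF93, which binds another group of L1 elements, was at 0.49 and 0.51 FPKM in JJ012 and had no count in 143B. ZNF274, which recruits SETDB1 to the ends of zinc finger genes themselves, was the highest of the known-role members after ZNF146, at 9.77 and 10.37 FPKM in JJ012 and 3.32 and 3.66 FPKM in 143B. ZNF808, needed for development of the human pancreas, was at 1.96 and 2.19 FPKM against 0.21 and 0.36 FPKM, with 17.6% of its 100-base words shared with other genes. ZNF224, ZNF331 and ZNF444 were near the same level in the untreated lines, at 2.71 and 2.46, 1.36 and 1.37, and 3.77 and 3.07 FPKM in JJ012 and 143B. ZNF382 did not pass 0.34 FPKM in any library.

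In the untreated lines, 146 members had at least 1 FPKM in either control library. A log2 ratio of FPKM with a pseudocount of 1 FPKM, called past 0.58 (the fold threshold of the study) in either direction, put 90 of these members higher in JJ012 (61.6%) and 13 lower (8.9%), where 41.3% of all 16929 genes were called higher and 27.4% lower, and 39.6% and 25.1% of protein-coding genes. The median member difference was 0.77, against 0.26 for all protein-coding genes, 0.62 for the 758 other protein-coding genes of chromosome 19 and 0.64 for the 75 ZNF genes with the KRAB pattern on other chromosomes. The KRAB pattern made little difference among the members, with medians of 0.77 with it and 0.80 without. Setting the 13 members without counts in control 143B to the floor of 3 counts left the median at 0.77 and the calls at 90 and 13. Scaling the libraries by the trimmed mean of M-values moved the median of all genes from 0.29 to 0.01, and the members' median then stood at 0.57 with 73 higher and 17 lower, where all genes then had 5690 higher and 5782 lower. Less the median of all genes tested, the members' median was 0.48. It was 1.28 with a pseudocount of 0.1 FPKM and 1.17 on CPM with a pseudocount of 1 CPM, both against 0.31 for protein-coding genes.

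**Figure D1:**
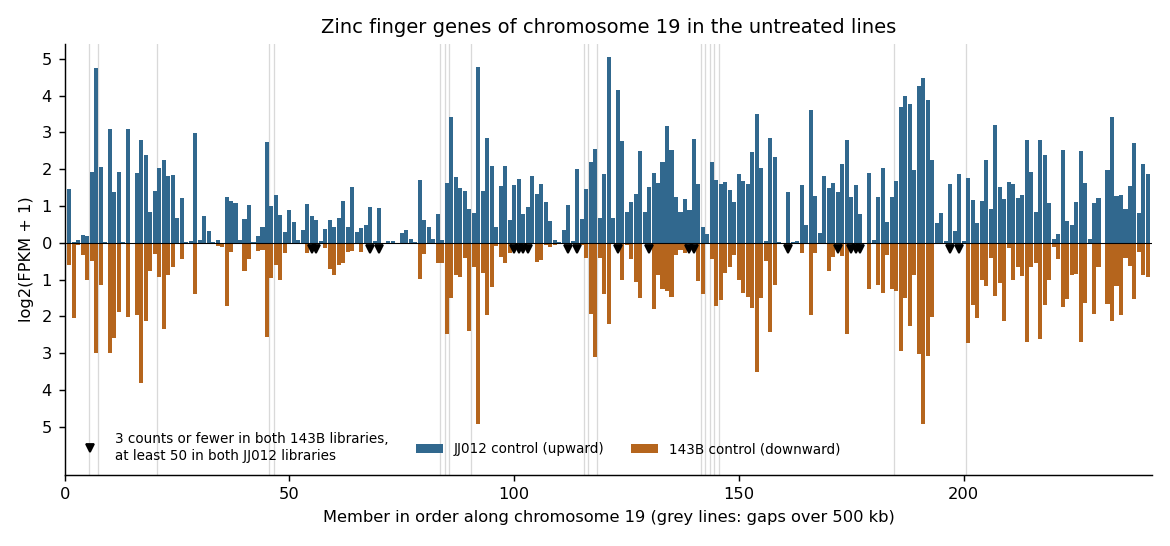
Level of the 241 members in the untreated libraries, in their order along chromosome 19 (x axis, rank), as log2(FPKM + 1) with JJ012 upward and 143B downward; grey lines mark gaps over 500 kb and triangles the 21 members with at least 50 counts in both JJ012 libraries and no more than 3 in both 143B libraries. The triangles fall in 5 of the 20 stretches, with runs of up to 4 members, and none lies in the last stretch of 41 members.

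A group of members was at or under the detection floor in 143B, called silent below for short. Of the 161 members with at least 50 counts in both JJ012 libraries, 21 had no more than 3 counts in both 143B libraries (13.0%), a criterion chosen after the data were seen. ZNF737, ZNF626, ZNF208, ZNF676, ZNF829, ZNF568, ZNF285 and ZNF665 among them were at 0.53 to 0.97 FPKM in control JJ012. They were thus not among the members compared between the untreated lines above. ZNF737, ZNF626, ZNF829, ZNF568 and ZNF665 stayed below 1 FPKM in all libraries. Over all genes with at least 50 counts in both JJ012 libraries the share was 4.40%, over protein-coding genes 2.91% (327 of 11242), over other protein-coding genes of chromosome 19 3.72% (25 of 672) and over ZNF genes of other chromosomes 2.67% (5 of 187). In the reverse direction, none of the 101 members with at least 50 counts in both 143B libraries was at the floor in both JJ012 libraries. Over all genes 2.42% were, and over protein-coding genes 2.21%. At shares this small only a few of 101 members would be at the floor, so no difference is read from this. ZNF555 came closest, with 4 counts in each JJ012 library and 421 and 645 in control and melatonin 143B.

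18 of the 21 had no count in either 143B library. Among these, control levels in 143B were at least 19.3-fold lower than in JJ012 for ZNF626 and at least 220-fold lower for ZNF404, the ends of the range, taking 3 counts per library as the floor. ZNF404 had 800 and 309 counts in control and melatonin JJ012 (16.81 and 7.73 FPKM), the highest level of the group. ZNF229 had 634 and 728 counts there (6.0 and 8.2 FPKM), a level at least 175-fold lower in control 143B. ZNF607 had 269 and 280 counts, a level at least 74.1-fold lower. The 3 others had stray counts: ZNF829 and ZNF284 had 1 count in control 143B, with CPM ratios of JJ012 to 143B of 87.6 (15.4 to 3494, here and below the exact 95% Clopper-Pearson interval) and 130 (23.0 to 5159), and ZNF888 had 2 counts in melatonin 143B. Apart from ZNF404 and ZNF229, the JJ012 counts of the group ran from 61 (ZNF829 after melatonin) to 436 (ZNF347 after melatonin). The gap between the lines in each of the 21 follows from the criterion.

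The silent members were placed along the chromosome as follows. When the 241 members are split wherever neighbours lie over 500 kb apart, 20 stretches result, and the 21 fell in 5 of them, which also hold 95 of the 161 members with 50 counts in both JJ012 libraries, while the other 15 stretches hold 66. The stretch from 36.2 to 37.8 Mb held ZNF790, ZNF345, ZNF829, ZNF568, ZNF571 and ZNF607, which is 6 of its 20 members with 50 counts in JJ012, and the first 4 of these follow each other with no other member between. ZNF568 controls a placental transcript of IGF2 in mice. The stretch from 51.6 to 53.6 Mb held ZNF528, ZNF888, ZNF415, ZNF347 and ZNF665 (5 of 30), the last 3 in a row. The stretch from 19.7 to 24.1 Mb, next to the centromere and rich in primate-specific members, held ZNF737, ZNF626, ZNF208 and ZNF676 (4 of 15). ZNF404, ZNF284, ZNF285 and ZNF229 lay between 43.5 and 44.5 Mb (4 of 18), and ZNF471 and ZNF71 between 55.5 and 56.7 Mb (2 of 12). By contrast, none of 30 such members was silent in the stretch with the most members (41), from 57.2 to 58.5 Mb near the end of the long arm, where the control 143B median was 1.03 FPKM against 1.44 FPKM in JJ012. In all, 11 of the 21 had a silent member as their direct neighbour in the member list, in 4 runs.

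Some other genes inside the stretches were silent as well. Inside the same 20 stretches, 47 protein-coding genes of chromosome 19 that are no members had 50 counts in both JJ012 libraries. They are part of the 672 other genes of chromosome 19 given above, of which 25 were at the floor. Of the 47, 9 were at the floor in both 143B libraries, a larger share than the 21 of 161 members. 4 of the 9 are zinc finger genes whose symbols the rule does not match: ZNF585A, ZNF585B, ZFP30 and ZFP28, with 325 and 498, 175 and 128, 253 and 367, and 341 and 671 counts in control and melatonin JJ012 and none in 143B. The others were NLRP4, NLRP5 and NLRP11 of the NLR family, the endogenous retroviral gene ERVV-2, and ACP5, the tartrate-resistant acid phosphatase, which lies in a stretch with no silent member. Between 43.5 and 44.5 Mb none of 7 such neighbours was silent although 4 members were.

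In build, the silent members were near the others. The KRAB pattern was found in 18 of the 21 and in 114 of the 140 members that had 50 counts in JJ012 and more than 3 in a 143B library. Their median finger number was 15 against 12, their median exonic length 6208 against 5639.5 bases and their median transcript GC content 41.1% against 42.6%. Their median level in control JJ012 was 1.58 against 2.19 FPKM. The promoters held a median of 19.5 CG dinucleotides (16 with a promoter) against 22 (128 with a promoter); the windows printed above show how far single members spread around such medians. No test was made of these differences, as both groups were drawn from the same 4 libraries.

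A member's reads can be shared with other genes. 36 of the 241 members share over 10% of their 100-base words with other genes, ZNF284 (42.5%) among the silent ones, and without such members the silent group was 20 of 140. By the coordinates given, 135 members overlap a gene on the other strand and 101 a gene on the same strand, and whether the counting used strand is not given in the sources used here. Of members that overlap no other gene, 3 of 43 were silent in 143B (6.98%), so the share was lower there.

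**Figure D2:**
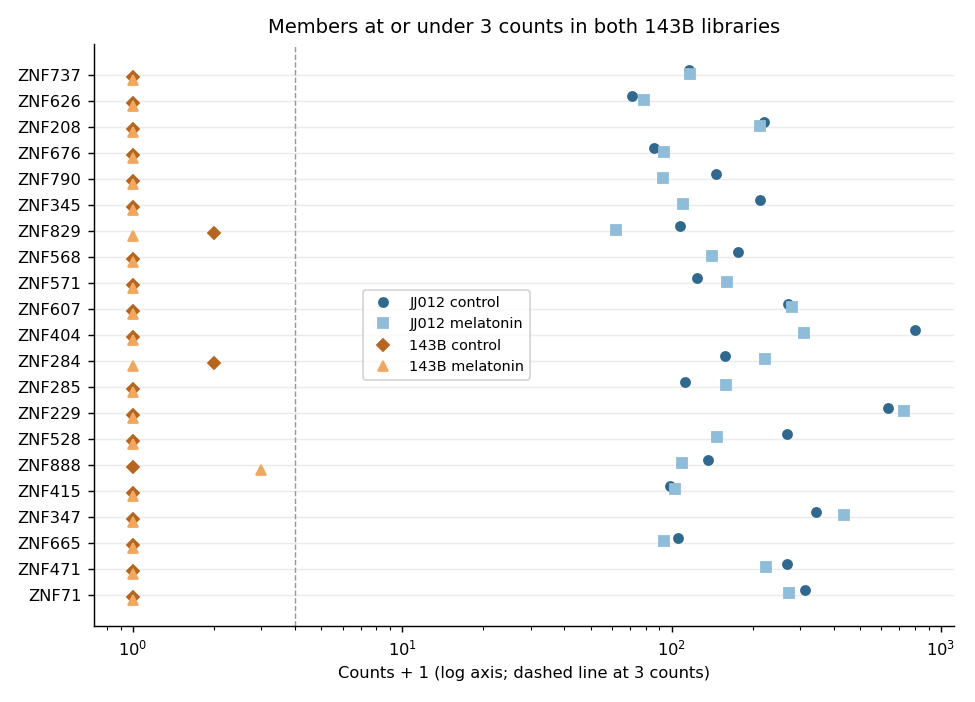
Counts plus 1 (x axis, log scale) in the 4 libraries for the 21 members with at least 50 counts in both JJ012 libraries and no more than 3 (dashed line) in both 143B libraries, in chromosomal order from top to bottom. JJ012 counts run from 61 to 800 and 143B counts from 0 to 2.

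Among members detected in both lines the untreated libraries also differed in single genes. ZNF428, with 950 counts in control JJ012 and 88 in control 143B, had a CPM ratio of 8.93 (7.17 to 11.2), and ZNF524, with 411 and 42 counts, of 8.09 (5.88 to 11.4). Each overlaps a gene on the other strand, SRRM5 and FIZ1. In the other direction ZNF555 differed by -6.99 on the log2 CPM scale (-8.87 to -5.63), and ZNF460, at 0.44 FPKM in JJ012 and 3.08 in 143B, had a ratio of 0.143 (0.0966 to 0.207). ZNF792 stood at 0.90 against 4.23 FPKM, ZNF699 at 1.59 against 5.03 FPKM, and ZNF121 at 5.88 against 12.95 FPKM. The order of the members was similar in both lines all the same, with a Spearman correlation of 0.70 between the control levels of the 241 members.

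After melatonin, more members were higher than lower in JJ012. Of 150 members with at least 1 FPKM in either JJ012 library, 21 were higher past 0.58 (14.0%) and 7 lower (4.67%), where 19.6% of all 15794 genes were called higher and 18.6% lower, and 17.8% and 16.1% of protein-coding genes. On this scale both shares of the members were thus below those of all genes, and the share of lower members by more. The median change was 0.13, with 96 of 150 members above 0 (64.0%), where 50.4% of all genes and 51.7% of protein-coding genes were. It was 0.02 over 11534 protein-coding genes, 0.24 over 183 ZNF genes of other chromosomes and -0.24 over 750 other protein-coding genes of chromosome 19. Of the latter 76 were higher and 197 lower, so on this scale the median of the members and that of these genes lay on different sides of 0. These other genes were shorter, with a median exonic length of 3781 bases against 5355 bases for the tested members. The part of length in this was not tested. The direction of the members' median held on every scale tried, but the split of calls did not. On TPM the length-scaled values of each library are brought to the same sum. There 59 members were higher and 3 lower, 95.2% higher among called members where FPKM gave 75%. Of all 15794 genes 5468 were then higher and 2474 lower, and their median moved to 0.27. The members' share of higher calls was thus not below that of all genes on TPM. With a pseudocount of 0.1 FPKM 36 of the 150 members were higher and 12 lower, where 3864 and 3805 of all genes were. By counting error alone, the interval of the CPM ratio lay above 1 for 69 of the 150 members and below 1 for 34, where it lay above 1 for 36.9% and below 1 for 35.2% of all genes tested, and for 42.1% and 38.2% of protein-coding genes.

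Members with and without the KRAB pattern had similar shares of higher calls and different shares of lower ones. Of 122 members with the pattern, 17 were higher and 2 lower (median 0.16), and of 28 without it, 4 were higher and 5 lower (median 0.01). ZNF genes of other chromosomes with the pattern had 12 higher and 1 lower of 76, with a median of 0.21. The difference between the shares was not tested.

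ZNF460 had the largest rise on the log2 scale, from 0.44 to 2.35 FPKM, a CPM ratio of 5.32 (3.65 to 7.96) on 34 and 152 counts. It was at 3.08 and 3.43 FPKM in 143B, so that melatonin JJ012 came nearer to 143B. ZNF529 went from 3.27 to 8.73 FPKM in JJ012, a ratio of 2.67 (2.40 to 2.97), and stood at 1.30 and 1.53 FPKM in 143B. ZNF121, without the KRAB pattern, went from 5.88 to 12.92 FPKM, a ratio of 2.2 (2.02 to 2.39). ZNF699 went from 1.59 to 4.24 FPKM, ZNF317 from 7.47 to 15.99 FPKM, and ZNF473, which acts with the U7 particle in the 3' processing of histone mRNA, from 2.26 to 5.45 FPKM. In 143B these 4 genes stayed within 0.27 of 0 on the log2 scale. The other 15 higher members had log2 changes of 0.59 to 0.95, from ZNF700 to ZNF749, and ZNF728 among them rested on 15 and 53 counts.

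The lower members were mostly short and without the KRAB pattern. ZNF404, which has the pattern and is silent in 143B, went from 16.81 to 7.73 FPKM, a CPM ratio of 0.460 (0.402 to 0.525). ZNF580 went from 18.08 to 9.80 FPKM, a ratio of 0.542 (0.481 to 0.610), while in 143B it went from 7.11 to 8.70 FPKM. ZNF524 went from 14.84 to 8.68 FPKM, ZNF414 from 3.13 to 1.53 FPKM and ZNF428 from 31.83 to 19.19 FPKM. These 5 have exonic lengths of 1441 to 2761 bases. ZNF358, at 2083 bases, went from 25.63 to 16.47 FPKM, and ZNF226, the long exception at 6922 bases, from 8.01 to 4.76 FPKM. After subtraction of the running median over exonic length, ZNF428, ZNF358, ZNF524 and ZNF414 no longer passed 0.58, and on the TPM scale ZNF428, ZNF358, ZNF524 and ZNF226 did not.

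**Figure D3:**
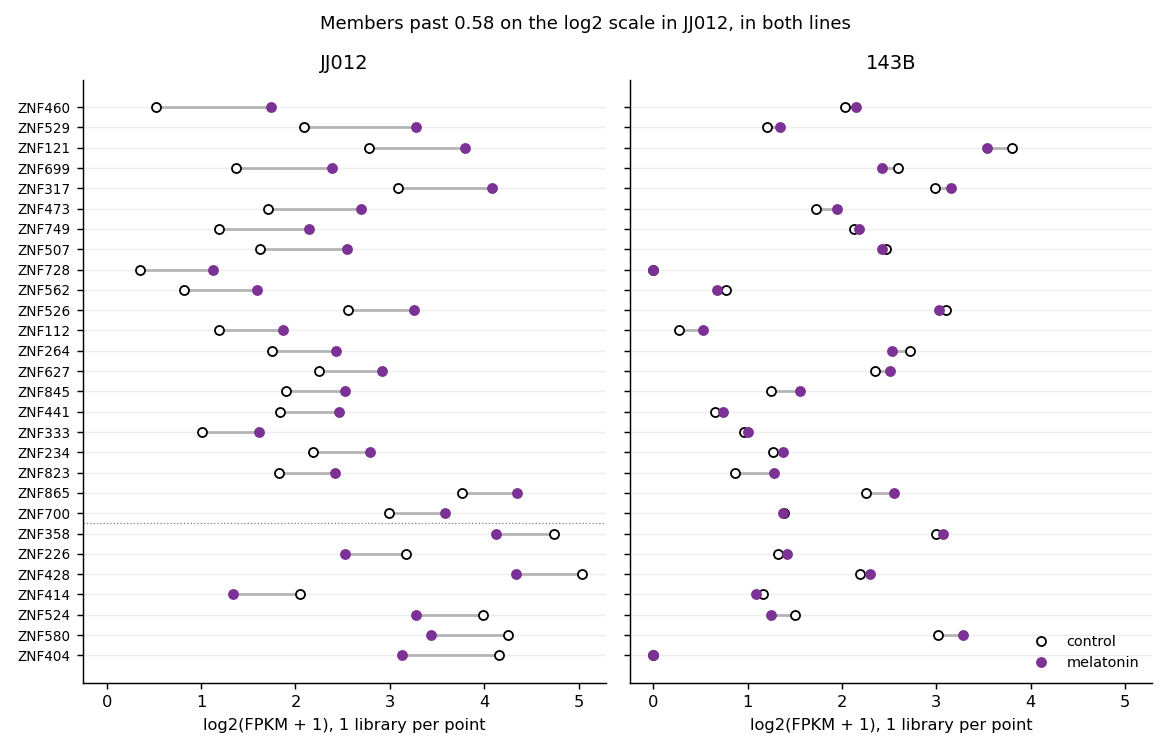
Level of the 28 members past 0.58 in JJ012, as log2(FPKM + 1), in control (open) and melatonin (filled) libraries of JJ012 (left) and 143B (right), 1 library per point, ordered by the change in JJ012 with the 7 lower members below the dotted line. In 143B the paired points lie close together, and ZNF728 and ZNF404 are at 0.

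In 143B few members differed with the pseudocount of 1 FPKM. Of 96 members with at least 1 FPKM in either 143B library, 1 was higher past 0.58 and none lower, where 6.09% of all 14135 genes were higher and 6.65% lower, and 3.48% and 2.60% of protein-coding genes. The member was ZNF837, at 0.55 and 1.62 FPKM on 18 and 57 counts, with a CPM ratio of 2.93 (1.70 to 5.29), and its span overlaps ZNF497-AS1 on the other strand. In JJ012 it was at 1.93 and 1.70 FPKM. The median change was 0.10, with 69 of 96 members above 0 (71.9%). It stayed above 0 on every scale tried, but was 0.01 over the 15 members with at least 5 FPKM, as over all genes there. Over the 96 members the change had a Spearman correlation of -0.32 with the mean level of the control and melatonin libraries. Protein-coding genes had a median of 0.04 with 56.0% above 0, and 53.6% of all genes were above 0. The median was 0.15 over 58 ZNF genes with the KRAB pattern on other chromosomes (77.6% above 0). It was 0.06 over 162 ZNF genes of other chromosomes (63.6% above 0) and 0.08 over 627 other protein-coding genes of chromosome 19 (61.6% above 0). On the TPM scale 7 members were higher and 1 lower (87.5% higher among called members). Of all 14135 genes 1213 were then higher and 1520 lower. With a pseudocount of 0.1 FPKM 11 of the 96 members were higher and 0 lower, where 1514 of all genes were higher and 1434 lower. The low share of higher members thus depended on the scale. The interval of the CPM ratio lay above 1 for 30 of the 96 members and below 1 for 10, where it lay above 1 for 28.4% and below 1 for 23.5% of all genes tested, and for 33.6% and 25.7% of protein-coding genes.

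No member passed 0.58 in both lines with the pseudocount of 1 FPKM. Only 1 member was called in 143B, so at most 1 could have passed in both. Of the 90 members tested in both, 0 passed with the same sign and 0 with opposite signs, where 2.50% of all 11822 genes tested in both passed with the same sign. With a pseudocount of 0.1 FPKM 1 member passed with the same sign, and on the TPM scale 2 did. 41 of the 90 were above 0 in both lines, 6 below 0 in both, 19 above 0 in JJ012 and below 0 in 143B, and 24 the reverse. These sign counts were not made over all genes. Over these members the Spearman correlation between the log2 changes of the lines was -0.16 and Pearson's r was -0.15, over points that share the same 4 libraries. Whether the response of a member differs between the lines was not tested.

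At the filter of 1 FPKM, exonic length and the change after melatonin were less closely related among the members than over protein-coding genes in JJ012. Over the 150 members the Spearman correlation of exonic length with the log2 change was 0.14. It was 0.40 over protein-coding genes, 0.31 over ZNF genes of other chromosomes and 0.35 over other protein-coding genes of chromosome 19. Over the 76 ZNF genes with the KRAB pattern on other chromosomes it was 0.12, near the members' value. In 3 equal groups of 50 by length, from 1441 to 4562, 4637 to 6481 and 6560 to 13421 bases, the median changes were 0.09, 0.15 and 0.16. Other protein-coding genes within the limits of each group had medians of -0.21, 0.09 and 0.25, and over the members' whole range of length, from 1441 to 13421 bases, their correlation was 0.36 (10174 genes). The number of lower members went from 6 in the short group to 0 and 1 in the others, while higher members numbered 8, 5 and 8.

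Within the members, the relation was seen in those without the KRAB pattern. Over the 122 members with the pattern the correlation with length was 0.02, and the medians by length group were 0.22, 0.11 and 0.16. Over the 28 members without it the correlation was 0.56, and the medians were -0.14 (18 members), 0.23 (6 members) and 0.47 (4 members). In these 28, the number of fingers had a correlation of 0.64 with the change and the GC content of the transcript -0.37, so length, fingers and GC content cannot be told apart here. With at least 5 FPKM required, the correlation over the 38 members left, with or without the pattern, was 0.36. The value over protein-coding genes is not given at that filter. The contrast with them was thus seen at the 1 FPKM filter only.

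In 143B exonic length and change had a correlation of -0.09 over the 96 members and of -0.13 over protein-coding genes. The medians of the 3 length groups were 0.11, 0.08 and 0.09, with 0.08, 0.04 and 0.01 for other protein-coding genes within the limits of each group. With at least 5 FPKM required, 15 members were left and their correlation was -0.49.

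**Figure D4:**
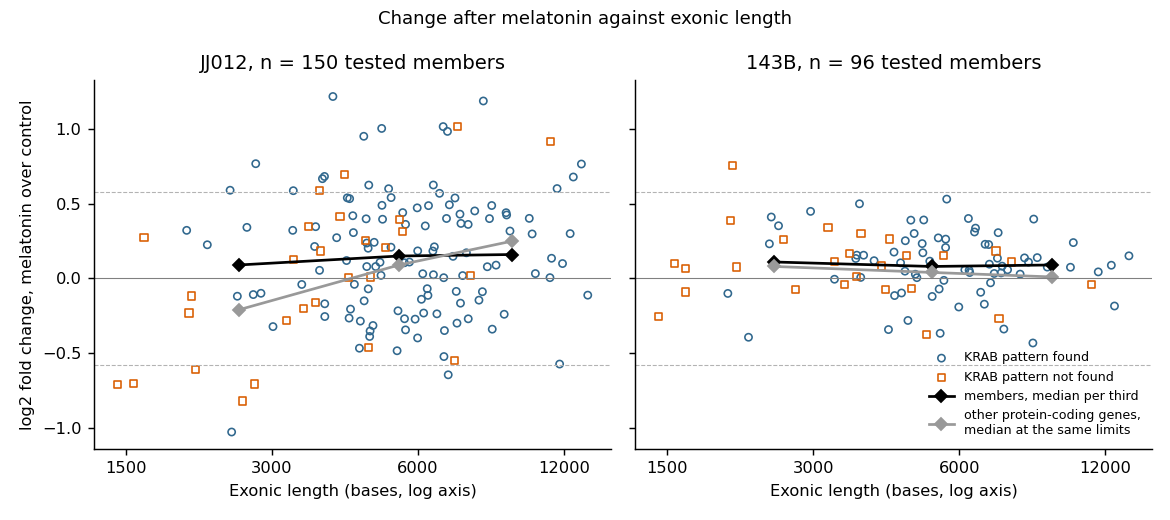
Log2 change after melatonin (y axis) against exonic length in bases (x axis, log scale) for the tested members of JJ012 (150, left) and 143B (96, right), with circles for members in which the KRAB pattern was found and squares for those in which it was not; diamonds join the median of each length group for members (black) and other protein-coding genes within the same limits (grey), drawn at the middle of the members' length range, and dashed lines mark 0.58. In JJ012 the grey line climbs from -0.21 to 0.25 and the black line from 0.09 to 0.16, and 5 of the 7 points below the lower dashed line are squares.

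The proteins that KRAB zinc finger proteins work with were given by 25 listed genes, 24 of them tested in each line. In JJ012 6 were higher and 3 lower past 0.58, with a median of 0.15, where 19.6% of all genes were called higher and 18.6% lower. SETDB1, the histone H3 lysine 9 methyltransferase of the complex, went from 6.33 to 10.68 FPKM, and its cofactor ATF7IP from 2.97 to 6.96 FPKM. TASOR and MORC2, of the HUSH silencing pathway, went from 10.03 to 15.64 and from 6.48 to 11.34 FPKM, and the DNA methyltransferases DNMT1 and DNMT3B from 3.85 to 6.50 and from 2.55 to 5.30 FPKM. The lower genes were CHD3 and CHD4 of the NuRD complex, at 18.02 and 9.54 and at 6.37 and 3.46 FPKM, and EHMT2, another H3 lysine 9 methyltransferase, at 7.38 and 4.57 FPKM. TRIM28 itself was at 45.02 and 30.78 FPKM in JJ012, a log2 difference of -0.53 that did not reach the threshold, and at 45.92 and 48.48 FPKM in 143B. None of the 24 passed 0.58 in 143B, where the median was -0.04. There 6.09% of all genes were called higher and 6.65% lower, and 3.48% and 2.60% of protein-coding genes. At shares this small few of 24 genes would pass, so no difference between the lines is read from this.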

How the data were processed

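Poly(A) RNA of 4 libraries was sequenced on an Illumina NovaSeq with paired-end reads. The submitters' processing notes name cutadapt 1.9.1, HISAT2 2.2.1, HTSeq 0.6.1, DESeq2 and the build hg38, without roles; strand setting, counting mode and annotation release are not given in the sources used here. The authors deposited counts per gene and FPKM values in a single table for all libraries, and recomputing FPKM from the deposited counts and lengths matched 100% of values within 0.01. Library totals were 15889564 to 19218343 counts.

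The members and lists were chosen with earlier results of these data known. Differences were log2((FPKM + 1)/(FPKM + 1)) over genes with at least 1 FPKM in either library, computed across the whole table and called at 0.58; CPM ratios carry exact 95% Clopper-Pearson intervals (scipy 1.17.1). No test was made. Named were the 10 members of highest mean FPKM, up to 6 higher and 6 lower per line and 5 each way between lines (at least 50 counts), members changed in both lines, 10 of known role, and those beside 1 FPKM; the silent members and their neighbours were chosen after their values were seen. The KRAB box and fingers were searched in the longest open reading frame of GENCODE 29 transcripts, in place of the RefSeq protein first planned; shared sequence was counted in 100-base words. Alternatives were the pseudocount, the filter, TPM, CPM, TMM (edgeR 4.0.16), median-of-ratios size factors, centring, the threshold and a running median over exonic length; the scripts were tested on simulated data.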

Additional observations from a re-analysis of the deposited data

Results flagged for a closer look

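5 of the members named above moved in opposite directions in the 2 lines, and in both lines the 95% counting interval of each CPM ratio excluded 1. With 1 library per condition, the difference between the lines was not tested. Over all genes tested the interval lay above 1 for 36.9% and below 1 for 35.2% in JJ012. In 143B it lay above 1 for 28.4% and below 1 for 23.5%. Opposite pairs were not counted over all genes, so no excess among the members is read from the 5. The log2 changes after melatonin were 0.54 in JJ012 and -0.34 in 143B for ZNF841, -0.82 and 0.26 for ZNF580, 1.02 and -0.27 for ZNF121, 1.02 and -0.17 for ZNF699, and -0.55 and 0.18 for ZNF444, a SCAN-domain zinc finger gene at 3.77 and 2.26 FPKM in control and melatonin JJ012 and 3.07 and 3.62 FPKM in 143B.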

How the results depend on the processing

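No paired analysis was possible because each condition has a single library and the labels carry no replicate numbers, and no library could be left out. Of 123 summary values recomputed, 88 stayed within the tolerance set for them, which is 1.5 times for a count. With a pseudocount of 0.1 FPKM, 36 members were higher and 12 lower in JJ012, 11 were higher in 143B and 1 passed in the same direction in both lines. With no filter the median member change was 0.02 in JJ012 and 0.01 in 143B, over members mostly near 0. With a filter of 5 FPKM, 9 members were higher in JJ012 (median 0.38) and 0 in 143B (median 0.01), 19 were higher and 3 lower in untreated JJ012 than in 143B, and the length correlations were 0.36 in JJ012 and -0.49 in 143B; fewer members enter. On TPM, 59 were higher and 3 lower in JJ012 (median 0.42), 7 higher and 1 lower in 143B, and 2 passed in the same direction in both lines. On CPM with a pseudocount of 1 CPM, 34 were higher and 12 lower in JJ012 and 7 higher in 143B. Of all genes 3175 of 15794 were then higher and 3064 lower in JJ012, and 889 of 14135 were higher in 143B. At a threshold of 1, 5 were higher and 1 lower in JJ012, 0 higher in 143B, and 52 higher and 5 lower between the lines. Less the running median over length, 77.2% of the members called between the lines were higher, against 87.4%, and ZNF837 reversed from 0.92 to -0.000417. Alternatives added after seeing the data gave, for members that overlap no other gene, 7 higher and 2 lower in JJ012, 0 higher in 143B, 26 higher and 7 lower between the lines and 3 silent in 143B, and, with 20 counts required in JJ012, 32 silent of 187. For TPM, CPM and the pseudocount the cause was not tested. 358 of 401 values of named members kept their side of the threshold and direction. Part of the 401 could not change. The filters and the limits on shared sequence and overlap decide only which members enter, and leave each value as it was. The 358 therefore overstates how far the values held.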
